A study of Mus musculus with 10 samples.

Results

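Interferon-stimulated genes were examined in RNA sequenced from cortical microglia of wild-type (WT) and APP/PS1 mice, the latter with or without injections of N-AS. The genes are 37 symbols taken from a list of transcripts known to respond to interferon. All 37 are among the 24421 symbols in the files and were among the 18727 genes that passed the filter on low counts, with at least 14 reads for each of them in every library. The rule names the symbols and uses no measured value, but the list was chosen with earlier results of these data known.

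Interferons are secreted proteins that warn cells of infection or of nucleic acid in the wrong place. Type I interferons bind the receptor chains Ifnar1 and Ifnar2, the kinases Jak1 and Tyk2 then phosphorylate STAT proteins, and a complex that holds Stat2 and Irf9 binds a DNA motif called the interferon-stimulated response element (ISRE). The genes under such motifs encode nucleic acid sensors, proteins that block steps of virus replication, and transcription factors that feed the response, and in the brain a set of microglia with high levels of them is known from ageing and from mice with amyloid plaques.

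The 3 groups were WT mice (3 libraries), APP/PS1 mice (4 libraries) and APP/PS1 mice after N-AS treatment (3 libraries), all 9 months old. APP/PS1 mice carry human transgenes for a mutant amyloid precursor protein and a mutant presenilin, deposit amyloid in the brain and model part of Alzheimer's disease; both APP/PS1 groups carry them. The promoters that drive the transgenes are not given in the sources used here. N-AS is N-acetyl sphingosine, a short-chain ceramide, and was injected under the skin at 30 mg/kg each day for 8 weeks from 7 months of age. The study's scheme gives vehicle to the other APP/PS1 mice, whereas the labels name no injection for them or for WT mice. Cells were taken from papain-dissociated cortex by density gradient, with 2 mice pooled per library, so the library is the replicate and p-values measure the spread between these pools.

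Total counts were 8805804 to 19432075 per library, of which 7852 to 24235 reads fell on the 37 genes. The labels also number the libraries, with 1 to 6 holding WT 1 and 2, APP/PS1 1 and 2 and N-AS 1 and 2, and 7 to 10 holding WT 3, APP/PS1 3 and 4 and N-AS 3. Markers of other brain cells were as abundant as those of microglia, the labelled cell type: microglial markers summed to 908 to 3394 CPM (read counts relative to a library size scaled by the trimmed mean of M values, TMM) and neuronal markers to 1561 to 4998 CPM, and no gene of either list was at 0 in a library. The study states that male mice were used, yet Xist, transcribed from an inactive X chromosome, was at 1.59 to 4.40 CPM in the 3 WT libraries and 2.14 CPM in N-AS 3, and at 453 to 579 CPM in the other 6. The Y-linked gene Ddx3y was at 69.0 to 73.4 CPM in those 4 libraries, at 13.6 to 26.8 CPM in APP/PS1 1 and 2 and N-AS 1 and 2, and at 0.478 and 0.476 CPM in APP/PS1 3 and 4. Xist was thus high in all 4 APP/PS1 libraries and in no WT library, so that this difference runs along with genotype, and N-AS 3 stood apart from N-AS 1 and 2.

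The promoters are shown first, because the motif that defines the response was found in part of them. RefSeq promoters (GRCm38.p6, 250 bases before to 50 bases after a start site) were found for 27 of the 37 genes. No entry was found for Dhx58, Zbp1, Ifi204, Oas2, Mx1, Usp18, Parp9, Parp14, Ifi27 or Rtp4. The ISRE core GAAANNGAAA, searched on both strands, stood in the promoters of 14 of the 27 genes (51.9%), against 3.99% of 27025 genes and 3.44% of their 32851 promoters. These were Stat2, Ifih1, Ddx58, Ifit1, Ifit3, Oas1a, Eif2ak2, Ifitm3, Bst2, Rsad2, Gbp2, Gbp3, Isg15 and Trim30a. The motif of STAT dimers, TTCNNNGAA (GAS), also searched on both strands, stood in 8 of the 27 (29.6%), against 9.55% of genes and 8.3% of promoters. The 2 motifs can share bases, and Oas1a, Eif2ak2, Ifitm3 and Bst2 held both.

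The 170 bases before the start site are printed 5′ to 3′ on the gene's own strand for 7 genes, with ISRE cores in capitals, so that the motif can be set beside their values. Read from the other strand the core appears as TTTC, any pair of bases and TTTC. Isg15 (chr4:156200819-156200988, minus strand) and Oas1a (chr5:120907526-120907695, minus strand) have overlapping copies on the gene's strand, and so has Bst2 (chr8:71537473-71537642, minus strand). Ifit3 (chr19:34583359-34583528, plus strand) and Rsad2 (chr12:26456453-26456622, minus strand) have theirs on the other strand. Zc3hav1 (chr6:38354604-38354773, minus strand), which rose in APP/PS1 libraries, and Xaf1 (chr11:72301459-72301628, plus strand), one of the genes with an unadjusted p under 0.05 after N-AS, have no match in this stretch.
Isg15: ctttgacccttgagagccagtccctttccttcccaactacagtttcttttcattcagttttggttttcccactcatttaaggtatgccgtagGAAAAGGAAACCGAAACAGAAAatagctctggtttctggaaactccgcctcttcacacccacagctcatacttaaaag
Ifit3: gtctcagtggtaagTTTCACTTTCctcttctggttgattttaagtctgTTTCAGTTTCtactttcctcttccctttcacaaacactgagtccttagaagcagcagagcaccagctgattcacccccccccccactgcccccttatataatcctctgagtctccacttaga
Bst2: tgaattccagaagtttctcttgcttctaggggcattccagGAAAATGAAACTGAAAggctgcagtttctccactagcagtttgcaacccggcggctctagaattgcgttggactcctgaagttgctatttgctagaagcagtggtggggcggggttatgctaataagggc
Oas1a: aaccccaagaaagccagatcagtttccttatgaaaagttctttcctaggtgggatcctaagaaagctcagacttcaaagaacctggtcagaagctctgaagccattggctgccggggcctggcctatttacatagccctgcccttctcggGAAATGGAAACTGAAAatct
Rsad2: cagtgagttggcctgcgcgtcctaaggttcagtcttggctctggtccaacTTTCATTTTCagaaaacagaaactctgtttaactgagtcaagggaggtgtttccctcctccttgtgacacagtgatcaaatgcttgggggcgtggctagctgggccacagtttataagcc
Zc3hav1: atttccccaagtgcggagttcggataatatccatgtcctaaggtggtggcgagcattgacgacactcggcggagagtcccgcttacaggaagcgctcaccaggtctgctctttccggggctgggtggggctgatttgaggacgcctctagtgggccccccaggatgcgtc
Xaf1: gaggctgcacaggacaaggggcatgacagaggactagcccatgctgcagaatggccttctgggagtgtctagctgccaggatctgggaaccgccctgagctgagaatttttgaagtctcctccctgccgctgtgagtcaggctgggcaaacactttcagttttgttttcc

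Isg15 held 3 overlapping cores, which begin 78, 72 and 66 bases before the start site, and Ifit3 held 2 separate ones at 156 and 122 bases. The core in the Oas1a promoter lay nearest to the start among these, at 20 and 14 bases. The median log2 fold change of APP/PS1 against WT was 0.33 over the 14 genes with a core and 0.49 over the 13 without, and that of N-AS against APP/PS1 was -0.349 and -0.355. The 10 genes without a promoter entry are in neither set. Their log2 fold changes of APP/PS1 against WT ran from 0.50 (Ifi27) to 3.08 (Ifi204). No test was run on any of these values, and no match means only that these letters are not in the window.

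**Figure D1:**
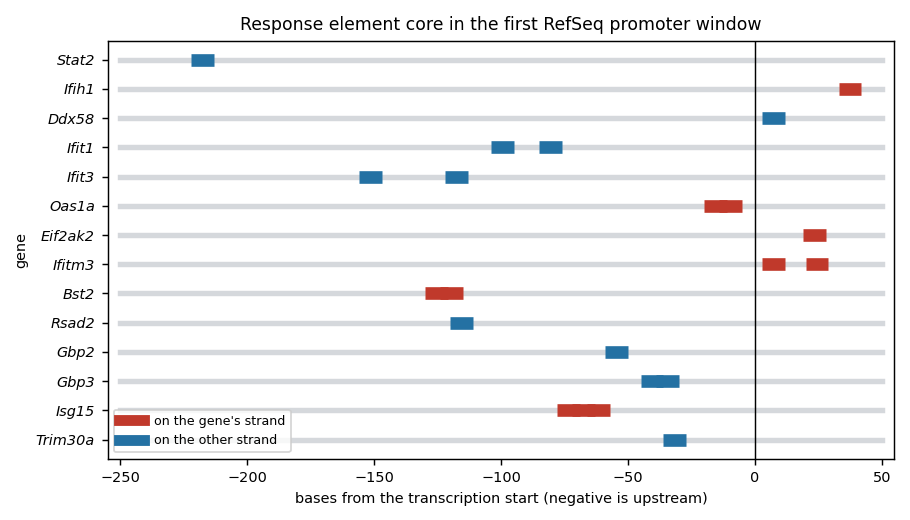
Positions of ISRE cores in the first RefSeq promoter window of each of the 14 interferon-stimulated genes that hold one. Positions are in bases from the start site, which is at 0, with 1 row per gene. A further core of Trim30a, in its window 2, is not drawn. The 3 cores of Isg15 overlap, and those of Oas1a lie within 20 bases of the start.

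Levels per length of exon differed widely between the genes. Ifit3, of the IFIT family, stood highest with 78.0 ± 25.0 CPM per kb in WT, 63.9 ± 11.2 in APP/PS1 and 65.0 ± 11.2 in N-AS libraries (SD, n = 3, 4 and 3). Ifitm3, a membrane protein that hinders virus fusion, followed in APP/PS1 libraries at 24.6 ± 5.2 CPM per kb, then Ifi27 at 15.4 ± 1.6 and Ifit1 at 15.2 ± 6.3. Neighbours in this order lay farther apart than the larger of their SDs only between Ifit3 and Ifitm3, Ifitm3 and Ifi27, Irf1 and Ifi35, Herc6 and Ifi44, and Cmpk2 and Zbp1. At the low end in APP/PS1 libraries were Cmpk2 (2.17 ± 0.42 CPM per kb), Zbp1 (1.31 ± 0.44) and Oas2 (1.24 ± 0.40). Ifi204 was the lowest but Zbp1 in WT, at 0.642 ± 0.231 CPM per kb, and stood at 5.53 ± 1.79 in APP/PS1 libraries. Ifit3 has a close copy, Ifit3b, whose counts were high and low in the same libraries, so reads that fit both may have been shared between them.

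The 37 genes were averaged as log2 CPM in each library to see them as a group. The mean was 3.98, 3.88 and 3.02 in WT 1 to 3, 4.07, 4.21, 4.34 and 4.57 in APP/PS1 1 to 4, and 4.06, 4.18 and 3.63 in N-AS 1 to 3. All 4 APP/PS1 libraries lay above all 3 WT libraries, but WT 1 and APP/PS1 1 differed by 0.10 only, whereas WT 3 was far below the other WT libraries. As group means the level was 3.63 ± 0.52 in WT, 4.30 ± 0.21 in APP/PS1 and 3.96 ± 0.29 in N-AS libraries (SD), differences of 0.67 for APP/PS1 minus WT and -0.34 for N-AS minus APP/PS1 on the log2 scale. Both differences rest on the same APP/PS1 libraries. In these bulk samples, fewer cells of a type and less RNA per cell cannot be told apart.

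**Figure D2:**
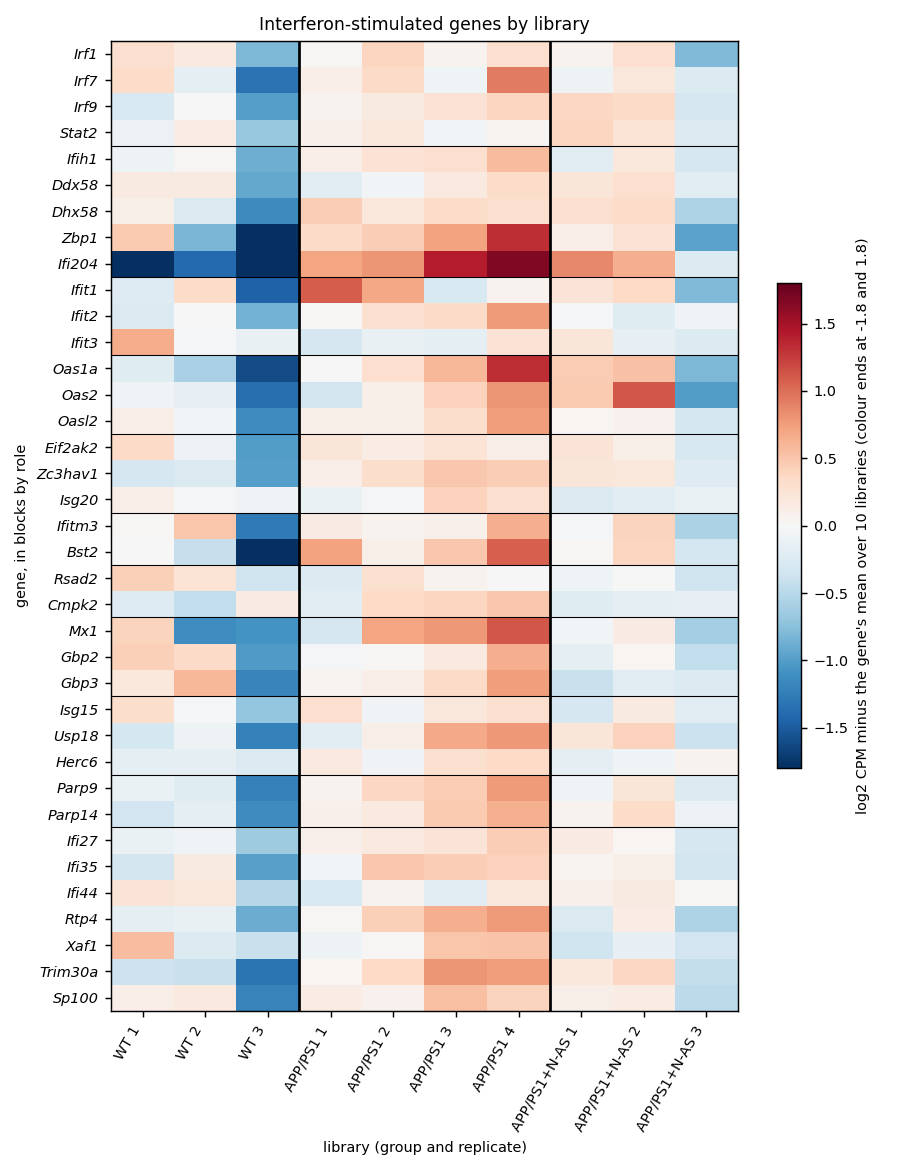
Heat map of log2 CPM of the 37 interferon-stimulated genes (rows) in the 10 libraries (columns), each gene shown as the difference from its own mean. WT 3 is the lowest library for 32 genes and APP/PS1 4 the highest for 21.

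WT 3 gave the lowest value of all 10 libraries for 32 of the 37 genes, against 19.1% of all genes tested, and APP/PS1 4 gave the highest for 21, against 7.71%. WT 1, at the same time, was the highest library for 6 genes, Ifit3, Eif2ak2, Rsad2, Isg15, Ifi44 and Xaf1. Within library numbers 1 to 6, the group mean differed by 0.22 between APP/PS1 and WT and by -0.02 between N-AS and APP/PS1, and within 7 to 10 by 1.43 and -0.83, with a single WT and a single N-AS library there. Without WT 3 the difference of APP/PS1 against WT was 0.37, and without N-AS 3 that of N-AS against APP/PS1 was -0.18.

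Markers of cell types differed between the groups and between libraries. Microglial markers (15 of 15 tested, none at 0 in any library) summed to 908 to 1318 CPM in WT, 2679 to 3394 CPM in APP/PS1 and 1693 to 2168 CPM in N-AS libraries, 11 of the 15 rose in APP/PS1 against WT by edgeR's quasi-likelihood test, and 0 fell after N-AS, with 9 lower at an unadjusted p under 0.05. Endothelial markers (9 of 9 tested, none at 0) summed to 607 CPM in WT 3 and to 1281 to 1873 CPM in the other 9 libraries, and neuronal markers (7 of 7, none at 0) to 4998 CPM in WT 3 and 1561 to 2897 CPM elsewhere. Oligodendrocyte markers (7 of 7 tested, none at 0) summed to 2258 to 6479 CPM in WT, 1827 to 4526 CPM in APP/PS1 and 2721 to 3697 CPM in N-AS libraries, and 1 of the 7, Cnp, fell in APP/PS1 against WT. Astrocyte markers (6 of 6, none at 0) summed to 2147 to 2561, 2398 to 3806 and 2206 to 3174 CPM, and 1 of the 6 rose, Gfap, an intermediate filament of reactive astrocytes, by 50.1-fold (14.7 ± 3.5 CPM in WT, 734.6 ± 210.2 CPM in APP/PS1 and 231 ± 138 CPM in N-AS libraries). Over the 6 astrocyte markers the log2 fold change of APP/PS1 against WT was above 0 in 3 and below 0 in 3, with a median of -0.076. Cnp and Gfap were singled out after their values were seen. Markers of monocytes and neutrophils (7 of 8 in the files, Plac8 at 0 in part of the libraries) summed to 91.6 CPM in APP/PS1 3 and to 7.57 to 23.5 CPM elsewhere. The microglial markers did not follow the 37 genes within WT, where WT 3 had the highest sum.

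Set against the mean of the microglial markers, the difference of the 37 genes between APP/PS1 and WT was -0.62, and between N-AS and APP/PS1 0.19, so both changed sign. The microglial markers did not move alike: their log2 fold changes ran from 0.32 to 2.51 and from -0.94 to -0.17. Their mean thus holds markers that moved less than the 37 genes (0.67 and -0.34) and markers that moved more. Set against the endothelial markers, the differences of the 37 genes were 0.42 and -0.20. The part of cell makeup in these differences was not tested.

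**Figure D3:**
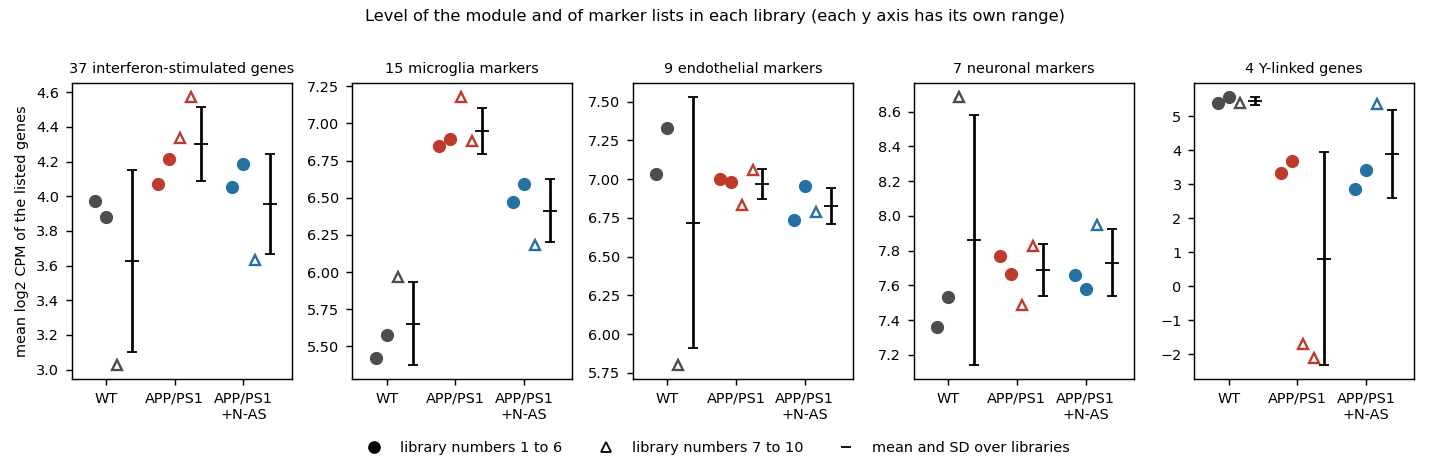
Mean log2 CPM of the 37 interferon-stimulated genes and of the microglial, endothelial, neuronal and Y-linked marker lists in each library, with group mean ± SD. Circles are library numbers 1 to 6 and triangles 7 to 10. WT 3 is low for the interferon-stimulated genes and the endothelial markers and high for the neuronal ones.

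For APP/PS1 against WT, the comparison that asks how microglia differ in mice with amyloid, 2 of the 37 genes rose and 0 fell at an adjusted p under 0.05 (quasi-likelihood test of edgeR, Benjamini-Hochberg adjusted over all genes tested), and 2.67% of all genes tested rose. The 2 were Ifi204 and Zc3hav1. At an unadjusted p under 0.05, 19 genes were higher (51.4%) and 0 lower, where 8.3% of all genes tested were higher and 8.9% lower. In 14 genes (37.8%) every APP/PS1 library lay above every WT library, against 8.15% of all genes tested. The fold change was above 0 in 34 and below 0 in 3 (Ifit3, Rsad2 and Ifi44), and the median log2 fold change was 0.60, where that of all genes tested was -0.07.

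The count was lower without WT 3. In that fit 1 gene was called (Ifi204), 11 were higher at an unadjusted p under 0.05, against 10.7% of all genes, as were 11 without APP/PS1 4, against 7.42%. Without WT 3 the median log2 fold change fell to 0.37. Within library numbers 1 to 6, 16 genes did not overlap and were higher in APP/PS1, against 24.5% of all genes, and 6 did not overlap and were lower, against 24.3%. A fit of these libraries alone gave 5 genes higher and 5 lower at an unadjusted p under 0.05, against 10.1% and 12.7% of all genes. Within 7 to 10, 36 were higher, against 41.3% of all genes, with 1 WT library on one side. With the mean level of 4 Y-linked genes as a covariate, an alternative chosen after seeing the data, Ifi204 was the 1 gene called (log2 fold change 2.21, edgeR adjusted p = 0.0298), 1 gene was higher at an unadjusted p under 0.05, against 4.29% of all genes, and the median was 0.25.

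**Figure D4:**
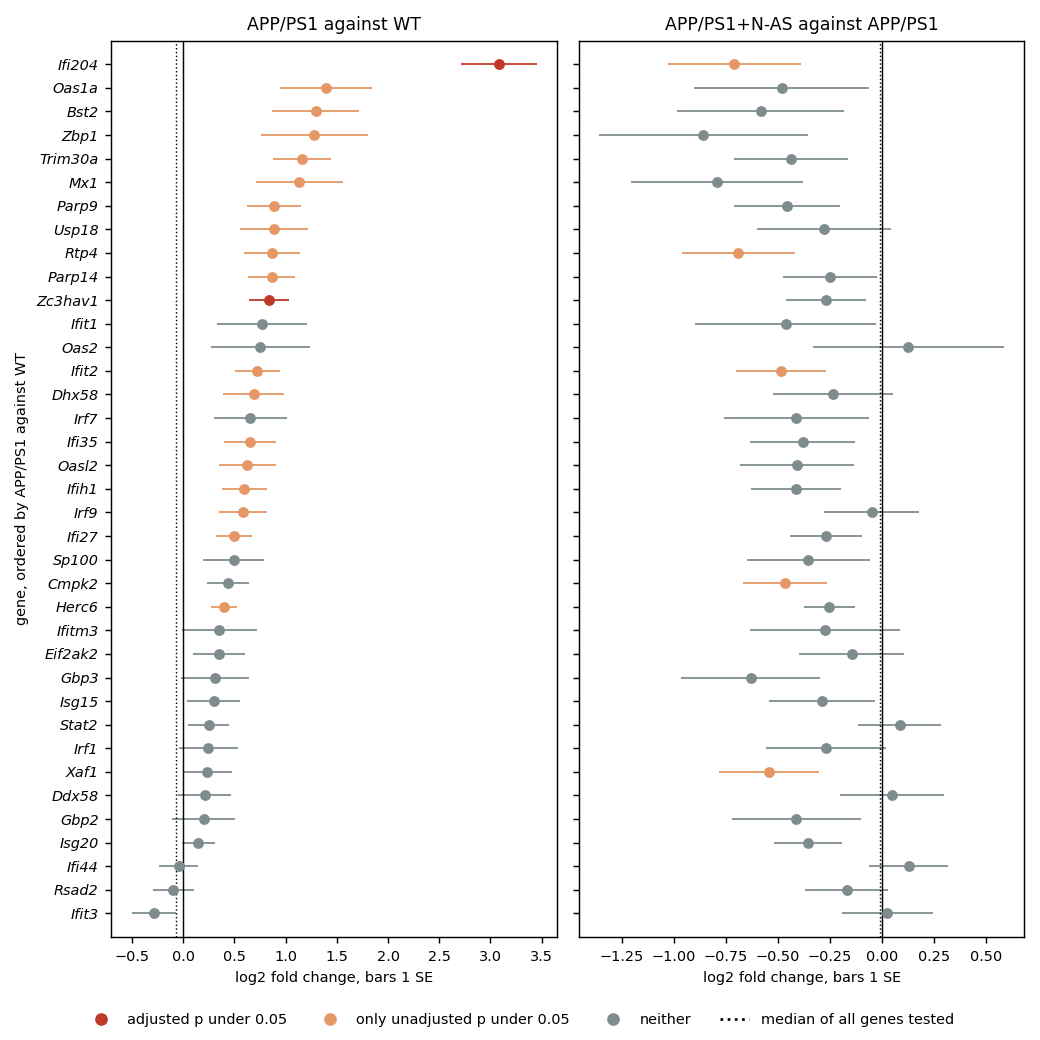
Log2 fold change ± 1 SE of the 37 interferon-stimulated genes in APP/PS1 against WT and in N-AS-treated APP/PS1 against APP/PS1. Red marks an adjusted p under 0.05 and orange an unadjusted p only. Ifi204 and Zc3hav1 are the red points, both in APP/PS1 against WT.

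Among the sensors of viral RNA and DNA, Ifi204 stood out. Ifi204 (chr1:173747293-173766943 in GRCm38, minus strand, GENCODE annotation) belongs to the PYHIN proteins of the Ifi200 family and takes part in sensing of cytosolic DNA. Its level was 1.66, 3.22 and 1.98 CPM in WT 1 to 3, 14.0, 14.8, 22.8 and 27.2 CPM in APP/PS1 1 to 4, and 15.6, 13.4 and 7.17 CPM in N-AS 1 to 3. No WT library came near an APP/PS1 or N-AS library, while N-AS 1 lay within the APP/PS1 range. Ifi204 rose 8.46-fold in APP/PS1 (log2 fold change 3.08 ± 0.37, SE, edgeR adjusted p = 0.00164), and N-AS against APP/PS1 gave -0.71 ± 0.32 (adjusted p = 0.564). It remained past the threshold in all 20 alternative fits of APP/PS1 against WT, among them the fit without WT 3 (2.95, adjusted p = 0.00672) and the fit of library numbers 1 to 6 (2.46, adjusted p = 0.00238). The Ifi200 family holds several similar genes side by side, and reads that fit more than one may have been counted for either.

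The RNA helicases of the same group showed smaller differences. Ifih1 (MDA5), which binds long double-stranded RNA, was at 25.1 ± 7.6 CPM in WT and 37.8 ± 5.1 CPM in APP/PS1 libraries without overlap, and Dhx58 (LGP2), its regulator, at 4.71 ± 1.88 and 7.44 ± 0.52 CPM, also without overlap. Ddx58 (RIG-I) had a log2 fold change of 0.21 and its groups overlapped. Zbp1, a sensor of Z-form nucleic acid, had one of 1.28 ± 0.52 (adjusted p = 0.235) from counts as low as 0.723 CPM in WT 3. Only Ifi204 of the 5 sensors passed the adjusted test.

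Among the transcription factors, Irf7 amplifies the response and Stat2 is a subunit of the complex on the ISRE. Irf7 was at 10.9, 7.68 and 3.47 CPM in WT 1 to 3, 9.41, 10.99, 8.20 and 16.6 CPM in APP/PS1 1 to 4 and 8.17, 10.02 and 7.31 CPM in N-AS 1 to 3. Stat2 was at 36.5, 43.1 and 24.4 CPM in WT, 41.6, 44.6, 37.9 and 40.4 CPM in APP/PS1 and 51.3, 46.7 and 32.7 CPM in N-AS libraries. For both genes the 3 groups overlapped, with WT 3 the lowest library. The log2 fold changes of APP/PS1 against WT were 0.65 ± 0.36 for Irf7 and 0.25 ± 0.20 for Stat2 (SE), and neither passed the test. Irf9, the DNA-binding subunit of that complex, was higher without overlap (28.7 ± 2.7 against 19.2 ± 6.3 CPM, log2 fold change 0.59, edgeR adjusted p = 0.224), and Irf1 overlapped (0.24).

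The IFIT family includes proteins that bind viral RNA that lacks the marks of host RNA. Its genes lie together on chromosome 19, yet they did not move alike. Ifit2 was at 12.96, 15.3 and 8.63 CPM in WT, 15.8, 18.8, 19.7 and 26.3 CPM in APP/PS1 and 15.2, 13.3 and 14.8 CPM in N-AS libraries. Every APP/PS1 library was above every WT and every N-AS library, although APP/PS1 1 and WT 2 differed little. Ifit3 was at 186, 115 and 107 CPM in WT, 94.9, 106, 105 and 139.6 CPM in APP/PS1 and 136, 106 and 98.6 CPM in N-AS libraries, so its highest library was WT 1. The log2 fold change of APP/PS1 against WT was 0.72 ± 0.22 for Ifit2 (adjusted p = 0.112) and -0.29 ± 0.22 for Ifit3 (adjusted p = 0.566), and without WT 1 that of Ifit3 was 0.005. Ifit1 spread widely, from 23.7 to 61.1 CPM in APP/PS1 and from 10.5 to 36.0 CPM in WT libraries.

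The OAS proteins make or resemble the enzymes that make 2-5A, the messenger that activates RNase L. Oas1a was higher in APP/PS1 without overlap, at 6.71 ± 2.84 against 2.64 ± 1.16 CPM (log2 fold change 1.39 ± 0.45, edgeR adjusted p = 0.132). Oasl2 was at 16.8, 14.98 and 7.09 CPM in WT, 16.7, 16.7, 19.3 and 26.1 CPM in APP/PS1 and 15.8, 16.3 and 12.4 CPM in N-AS libraries. WT 1 and the first 2 APP/PS1 libraries were almost level, and all N-AS libraries lay just under all APP/PS1 libraries. Oas2 overlapped in each comparison. Oas1a lies in a cluster of similar Oas1 genes, so its counts share the same doubt as Ifi204.

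Zc3hav1, the zinc-finger antiviral protein ZAP (chr6:38305286-38354603, minus strand), binds RNA rich in CpG and leads it to decay. It was at 21.5, 22.0 and 13.3 CPM in WT, 28.7, 33.0, 37.1 and 35.8 CPM in APP/PS1 and 30.7, 30.4 and 22.5 CPM in N-AS libraries. The APP/PS1 libraries were all above the WT libraries, and the N-AS libraries were also above WT but overlapped APP/PS1. Zc3hav1 rose 1.79-fold in APP/PS1 (log2 fold change 0.84 ± 0.20, edgeR adjusted p = 0.0441), close to the threshold, and passed it in 9 of 20 alternative fits. Without WT 3 the value was 0.64 (adjusted p = 0.0572). Eif2ak2 (PKR), which halts translation on double-stranded RNA, and Isg20, an exonuclease, overlapped between APP/PS1 and WT, with log2 fold changes of 0.35 and 0.15.

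Bst2 (tetherin) holds budding virus at the cell surface. It was at 5.59, 4.21 and 1.302 CPM in WT, 9.23, 6.03, 7.86 and 11.8 CPM in APP/PS1 and 5.67, 7.32 and 4.51 CPM in N-AS libraries. Every APP/PS1 library was above every WT library. Its log2 fold change of 1.29 ± 0.42 did not pass edgeR's test (adjusted p = 0.139). Ifitm3 was at 14.1, 19.6 and 5.74 CPM in WT, 15.4, 14.5, 14.8 and 21.9 CPM in APP/PS1 and 13.6, 18.3 and 9.38 CPM in N-AS libraries. All 3 groups of Ifitm3 overlapped, and its log2 fold change in APP/PS1 went from 0.35 with all libraries to -0.02 (-0.015) without WT 3.

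**Figure D5:**
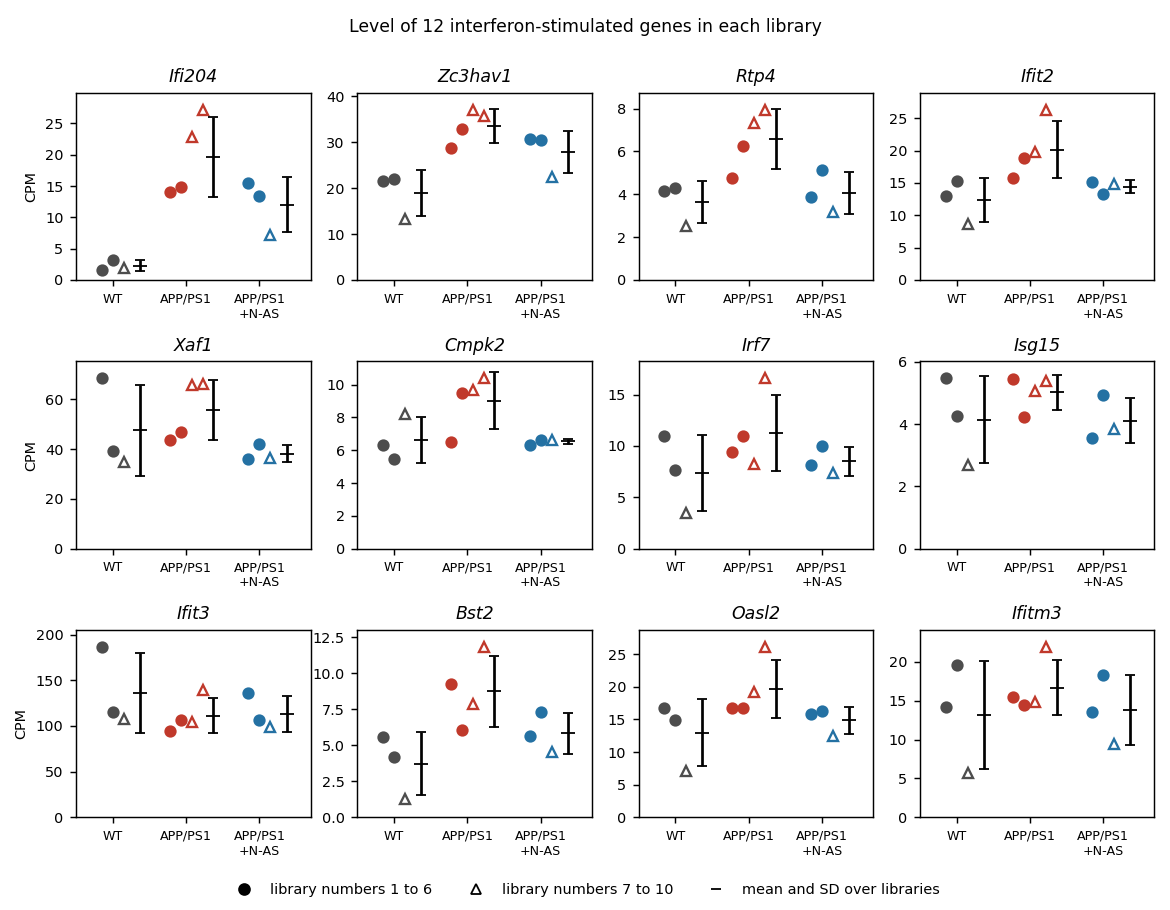
CPM of 12 interferon-stimulated genes in each library, by group, with group means. Ifi204 separates WT from the other groups, whereas Ifit3 and Isg15 overlap in all 3 groups.

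Isg15 is a ubiquitin-like protein that is joined to other proteins, Usp18 removes it and dampens the receptor, and Herc6 is its ligase in mice. Isg15 was at 5.47, 4.27 and 2.7 CPM in WT, 5.44, 4.21, 5.05 and 5.38 CPM in APP/PS1 and 3.56, 4.93 and 3.84 CPM in N-AS libraries. WT 1 and APP/PS1 1 were almost level, and the groups overlapped. Usp18 was at 4.87, 5.70 and 2.60 CPM in WT, 5.26, 6.61, 9.70 and 10.4 CPM in APP/PS1 and 7.05, 8.11 and 4.66 CPM in N-AS libraries, with APP/PS1 3 and 4 above the rest. The log2 fold changes of APP/PS1 against WT were 0.30 ± 0.26 for Isg15, 0.89 ± 0.33 for Usp18 and 0.40 ± 0.13 for Herc6, whose libraries did not overlap, and none passed the adjusted test.

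Rtp4, a chaperone of membrane receptors that interferon induces strongly, was at 4.16, 4.27 and 2.51 CPM in WT, 4.75, 6.28, 7.31 and 7.95 CPM in APP/PS1 and 3.89, 5.14 and 3.18 CPM in N-AS libraries. The APP/PS1 libraries were all above WT, and N-AS 2 lay inside the APP/PS1 range. Its log2 fold change was 0.87 ± 0.28 in APP/PS1 against WT (edgeR adjusted p = 0.129). Trim30a, which restrains Toll-like receptor signalling, was at 17.2 ± 5.6 CPM in WT and 38.2 ± 9.0 CPM in APP/PS1 libraries without overlap and just missed the threshold (log2 fold change 1.16 ± 0.28, adjusted p = 0.0508); it passed in 8 of 20 alternative fits. Its neighbour Trim30d is similar in sequence, and reads may have been shared. The ADP-ribosyltransferases Parp9 and Parp14 were both higher without overlap, with log2 fold changes of 0.89 ± 0.26 and 0.86 ± 0.23 (adjusted p = 0.0999 and 0.0721). Parp9 shares 9.4% of its exon bases with Dtx3l on the opposite strand, and whether strand was used in counting is not given in the sources used here.

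The remaining genes of the list can be given by range. Mx1, a dynamin-like GTPase that traps viral particles, had a log2 fold change of 1.13 ± 0.43 in APP/PS1 against WT with overlap (adjusted p = 0.199), and the guanylate-binding proteins Gbp2 and Gbp3 had 0.20 and 0.31. Rsad2 (viperin), which makes a chain-terminating nucleotide, had -0.10, and Cmpk2, the kinase gene beside it on chromosome 12, had 0.44. Ifi27, Ifi35, Ifi44, Xaf1 and Sp100 lay between -0.04 and 0.65, and of these only Ifi27 was free of overlap.

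For N-AS-treated against untreated APP/PS1 mice, which asks whether N-AS changes microglia in mice with amyloid, 0 of the 37 genes and 0% of all genes tested fell at an adjusted p under 0.05 in edgeR's quasi-likelihood test, and 0 rose. The lowest adjusted p was 0.528 among the 37 genes and 0.405 among all genes. DESeq2 called 0 of the 37 as well. At an unadjusted p under 0.05, 5 genes were lower and 0 higher, where 4.05% of all genes were lower, and in 5 (13.5%) every N-AS library lay under every APP/PS1 library, against 6.46% of all genes. The fold change was below 0 in 32 and above 0 in 5 (Ddx58, Ifi44, Ifit3, Oas2 and Stat2), and the median log2 fold change was -0.355, against -0.01 for all genes.

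The 5 genes with an unadjusted p under 0.05 were Rtp4 (log2 fold change -0.69 ± 0.27, edgeR adjusted p = 0.528), Cmpk2 (-0.47 ± 0.20), Xaf1 (-0.54 ± 0.24), Ifit2 (-0.49 ± 0.22) and Ifi204 (-0.71 ± 0.32). Cmpk2, a mitochondrial nucleotide kinase, was at 6.47, 9.50, 9.70 and 10.4 CPM in APP/PS1 1 to 4 and at 6.33, 6.63 and 6.65 CPM in N-AS 1 to 3, and APP/PS1 1 lay among the N-AS libraries. Xaf1, a partner of an inhibitor of apoptosis, was at 43.5, 47.0, 65.8 and 66.4 CPM in APP/PS1 and at 36.1, 42.0 and 36.5 CPM in N-AS libraries, against 68.5, 39.2 and 35.0 CPM in WT. The N-AS and APP/PS1 libraries of Xaf1 did not overlap, while WT spanned both. Gbp3, Ifit2, Oasl2 and Zbp1 were the other genes without overlap, and in each of the 5 genes with an unadjusted p under 0.05 APP/PS1 3 and 4 were the highest APP/PS1 libraries.

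The difference was smaller in library numbers 1 to 6. There 8 genes were lower after N-AS without overlap, against 22.2% of all genes, and 7 higher, against 22.3%, so both counts were near the background. In 7 to 10, with a single N-AS library, 36 were lower against 37.9% of all genes. The median log2 fold change was -0.06 in a fit of library numbers 1 to 6 and -0.13 with the Y-linked covariate. The group means of the 37 genes in the same-numbered pairs differed by -0.02, -0.03 and -0.71 on the log2 scale. With the replicate number as a block the median log2 fold change was -0.29 and 1 gene, Ifit1 (-0.58), was lower at an unadjusted p of 0.0168 (adjusted p = 0.581, edgeR). In the fit with that block 3.27% of all genes were lower at an unadjusted p under 0.05. Without APP/PS1 3, APP/PS1 4 or N-AS 3, each left out alone, 0 of the 37 genes had an unadjusted p under 0.05. Of all genes, 2.45%, 2.65% and 2.5% were lower in those 3 fits and 2.76%, 3.04% and 4.21% higher.

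Against WT, the N-AS-treated APP/PS1 libraries had 1 gene that rose at an adjusted p under 0.05, Ifi204 (5.17-fold, log2 fold change 2.37 ± 0.38, edgeR adjusted p = 0.0407), and 0 that fell, where 0.176% of all genes tested rose. Without WT 3 its adjusted p was 0.0743 (log2 fold change 2.24), and it passed in 10 of 19 alternative fits. At an unadjusted p under 0.05, Ifi204, Parp14, Trim30a and Zc3hav1 were higher and 0 genes lower, against 3.64% of all genes that were higher. Without WT 3 this count was 1 higher and 3 lower, against 5.28% and 6.81% of all genes. Without N-AS 3 it was 10 higher and 0 lower, against 5.14% and 3.62% of all genes. The median log2 fold change of the 37 genes was 0.23 and was 0.00 (0.002) without WT 3. Since N-AS against APP/PS1 and APP/PS1 against WT share libraries, their values are placed side by side only: Ifi204 was at 2.29 ± 0.82 CPM in WT, 19.7 ± 6.4 CPM in APP/PS1 and 12.04 ± 4.36 CPM in N-AS libraries.

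The other genes of the pathway were taken from a list of 111, of which 105 are in the files and 93 were tested. Of the 93, 14 rose and 0 fell in APP/PS1 against WT (quasi-likelihood test of edgeR, Benjamini-Hochberg adjusted), where 2.67% of all genes rose, and 0 were called in both other comparisons. The ligands were hardly seen: 11 of 13 failed the filter with at most 5 reads in a library, and Ifnb1 had 9 reads in all 10 libraries together. Only Ifnk and Ifng were tested, and neither passed. This sequencing depth could not show a difference in the ligands that failed the filter. Ifnk and Ifng had 6 to 31 and 3 to 27 reads per library.

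Of the 6 receptor chains, Ifnar2 and the interferon gamma receptor chain Ifngr1 rose (log2 fold changes 0.80 ± 0.16 and 0.68 ± 0.13, edgeR adjusted p = 0.0215 and 0.0200). Ifnar2 was at 32.3, 38.3 and 27.4 CPM in WT, 48.2, 50.6, 59.0 and 68.9 CPM in APP/PS1 and 43.3, 46.0 and 42.6 CPM in N-AS libraries, with no overlap between any of the 3 groups. Ifnar1, its partner chain, was at -0.24 ± 0.24 (adjusted p = 0.684), with its highest library in WT 1. None of the 5 Janus kinases and STATs tested passed.

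Of 12 nucleic acid sensors and adaptors tested 3 rose, of 6 other interferon regulatory factors 2, of 7 inhibitors of the signal 1 and of 47 other interferon targets 6. The log2 fold changes of these 47 in APP/PS1 against WT were above 0 in 32 and below 0 in 15. They ran from -0.54 to 2.54, with a median of 0.235. Tlr7, the endosomal receptor of single-stranded RNA, had a log2 fold change of 1.84 ± 0.21, and Unc93b1, the chaperone that carries it to endosomes, 1.27 ± 0.18. Irf8 and Irf5, regulatory factors that myeloid cells express without interferon, had 1.66 ± 0.30 and 1.28 ± 0.23. Ptpn6 (SHP-1), a phosphatase that restrains receptor signalling, had 1.97 ± 0.27, and of the other interferon targets Lgals3bp had 2.54 ± 0.37, Ifi30 had 1.41 ± 0.20 and Trim30d had 1.46 ± 0.27. Irf8 was at 12.7, 14.0 and 15.04 CPM in WT, 34.0, 35.5, 49.7 and 56.8 CPM in APP/PS1 and 35.8, 41.7 and 16.9 CPM in N-AS libraries, and WT 3 was not low for it. The other 4 genes that rose were Phf11b, Mb21d1 (cGAS), Slfn8 and the chemokine Cxcl10, named here after their values were seen. These genes moved in the same direction as the microglial markers given above, and the part of cell makeup in them was not tested.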

How the data were processed

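RNA was isolated from papain-dissociated cortical microglia of WT mice and of APP/PS1 mice with or without N-AS, ribosomal RNA was removed, and stranded libraries were sequenced in pairs. According to the study's methods and the submitters' processing notes, reads were aligned with TopHat to mm10 and counted per gene with bedtools and Bioconductor, and edgeR is named without a version. The annotation is not given in the sources used here. The authors deposited raw counts per gene symbol for each library, as whole numbers without normalization or filter. The FPKM values and quantile normalization of the study were not used here.

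The labels gave each library its group and replicate number. The 24481 lines of the files hold 24421 symbols, and 103 lines that share 43 symbols were summed. Genes were filtered with filterByExpr, scaled by TMM and tested with edgeR 4.0.16 in R 4.3.3 (quasi-likelihood test, all 3 groups fitted together with no covariate). Adjusted p-values cover all 18727 genes tested (Benjamini-Hochberg), and 0.05 was the threshold. Fold changes are log2 fold changes of that model, CPM uses the TMM factors, and log2 CPM a prior count of 2. The common dispersion of 0.0752 corresponds to a biological coefficient of variation of 27.4%. As PCR copies were not told apart by molecular identifiers, intervals from counts would cover counting error only. The script was tested on simulated data.

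The genes of the list, the pathway list, the marker lists and the tests were chosen with earlier results of these data known. Values in every library are given for Irf7, Stat2, Isg15, Ifit3, Bst2, Ifitm3, Oasl2, Usp18 and Rtp4, for genes of the list with an adjusted p under 0.05, and for up to 8 with the lowest unadjusted p in N-AS against APP/PS1. Of the pathway list, up to 10 called genes with the lowest p are named, with Ifnar1, Ifnar2 and Irf8, and 1 further gene of that rule is not reported here. Exon lengths, positions and overlaps came from GENCODE M21 (GRCm38), and promoters from RefSeq (GRCm38.p6).

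The labels give replicate numbers but do not say that same-numbered libraries belong together, so pairing by number was assumed. It was looked at in same-numbered libraries only, without differently numbered ones for reference. After group means were removed, same-numbered N-AS and APP/PS1 libraries correlated with r = 0.278, 0.142 and 0.309 across genes, and the fit with this block is given beside that comparison. Other settings tried were total counts or upper-quartile factors, weaker and stricter filters on low counts, a robust dispersion, a fit of the 2 groups compared, a covariate for library numbers 1 to 6 against 7 to 10, the block, each library left out, DESeq2 1.42.0, and voom of limma 3.58.1 after quantile normalization. A fit of library numbers 1 to 6, the exclusion of WT 3 and N-AS 3 together, a Y-linked covariate, the endothelial scale and the counts over the pathway list were chosen after seeing the data.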

Additional observations from a re-analysis of the deposited data

Results flagged for a closer look

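Ifitm3 in APP/PS1 libraries had 1 sample far from the others: APP/PS1 4 was at 21.9 CPM and the other 3 at 14.5 to 15.4 CPM, a gap of 0.867 of the range and above Dixon's critical value for 4 samples. Such a gap was looked for in 15 values and found in 1, and chance alone gives about 1 in 20.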

How the results depend on the processing

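The direction of the median log2 fold change of the 37 genes was the same in every alternative run for each comparison, including each library of the 2 groups compared left out (the third group's libraries stayed in), with 0.37 to 0.76 for APP/PS1 against WT, -0.47 to -0.23 for N-AS against APP/PS1 and 0.00 (0.002) to 0.37 for N-AS against WT when 1 library was left out. In library numbers 1 to 6 the last 2 were -0.06 and 0.06, and with the Y-linked covariate -0.13 and 0.13. The counts near the threshold moved. In APP/PS1 against WT, 8 genes were called by DESeq2 (7.79% of all genes, either direction, against 3.47% in the fit reported). The count was 4 with library numbers as a covariate (5.63%), 1 with the replicate block (1.74%) and 1 in a fit of the 2 groups compared (2.25%). It was 1 in library numbers 1 to 6 (5.2%), 1 with the Y-linked covariate (0.336%) and 1 to 2 with each library left out (1.61% to 4.83%). At an unadjusted p 19 passed, all higher, against 8.3% of all genes that were higher. Zc3hav1 was no longer past the threshold in the 1-gene fits, nor with any single WT or APP/PS1 library left out. In N-AS against APP/PS1, 5 genes passed at an unadjusted p, all lower, against 4.05% of all genes that were lower. In the other fits 0 were called, against at most 0.579% of all genes (DESeq2). In N-AS against WT, 0 were called with total counts (0.155% of all genes), limma with quantile normalization (0.107%), the replicate block (0.0267%) or the 2 groups compared (0.0111%). In library numbers 1 to 6, 2 were called, Ifi204 higher and Gbp3 lower, against 2.43% of all genes. At an unadjusted p 4 passed, all higher, against 3.64% of all genes that were higher. With each library left out 0 to 1 were called, against 0.00522% to 0.583% of all genes. Among the pathway genes in APP/PS1 against WT, 6 were called with the block (1.74% of all genes) and 1 with the Y-linked covariate (0.336%). With each library left out 7 to 14 were called, against 1.61% to 4.83% of all genes. The pathway genes called in N-AS against WT numbered 6 by DESeq2 (1.02% of all genes) and 1 without a filter (0.185%). They numbered 1 with library numbers as a covariate (0.342%), 12 in library numbers 1 to 6 (2.43%) and 7 without WT 3 and N-AS 3 (0.836%). With each library left out they numbered 0 to 5, against 0.00522% to 0.583% of all genes.

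The median in APP/PS1 against WT was 0.19 in library numbers 1 to 6. The mean log2 CPM of the 37 genes, relative to the microglial markers, changed sign to -0.62 for APP/PS1 against WT, 0.19 for N-AS against APP/PS1 and -0.43 for N-AS against WT. On the plain scale the first was 0.22 among libraries numbered 1 to 6 but 1.43 among those numbered 7 to 10, where the second was -0.83. Sign changes in APP/PS1 against WT were followed singly for Irf7, Stat2, Isg15, Ifit3, Bst2, Ifitm3, Oasl2, Usp18, Rtp4, Ifi204 and Zc3hav1. Of these, Isg15, Ifit3 and Ifitm3 changed sign without passing the test. Isg15 was at -0.037 in library numbers 1 to 6. Ifit3 was at 0.005 without WT 1, the highest of its values with 1 library left out, which began at -0.416. Ifitm3 was at -0.015 without WT 3, the lowest of its values with 1 library left out, which reached 0.791. It was at -0.22 in library numbers 1 to 6, -0.016 without WT 3 and N-AS 3, and -0.017 with the Y-linked covariate. Other genes of the list changed sign as well. Of the 37, 34 were above 0 and 3 below with all libraries, against 24 and 13 in library numbers 1 to 6. Without WT 3 these counts were 29 and 8, and with the Y-linked covariate 27 and 10. The cause was not tested. After group means were removed, same-numbered libraries of APP/PS1 and WT correlated with r = -0.485, 0.441 and -0.00962, and those of N-AS and WT with -0.136, 0.348 and 0.24. Without differently numbered libraries for reference, these values cannot decide whether replicate numbers pair the libraries. With the replicate number as a block, 1 and 0 of the 37 genes were called, against 1.74% and 0.0267% of all genes. Few reads limit Zbp1 and Ifi204 in WT and the interferon ligands in every library.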
